A study of Homo sapiens with 10 samples.

Results

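Interferon-stimulated genes were examined in PC-3 cells, an established cell line from a bone metastasis of human prostate cancer, on 10 single-color Agilent expression arrays. The 37 genes were taken from a list of well-known interferon targets and found by the gene name that the scanner files give, IRF9 by its older symbol ISGF3G, and 1 value per gene came from its probe with the highest mean signal. They are 37 of the 28089 named genes with a probe, and all 37 were among the 19709 genes that passed the filter on dim probes. The labels give 5 groups of 2 arrays, called biological replicates: cells before treatment (0 h), and cells kept for 24 h with the solvent DMSO, with 60 µM luteolin, with 60 µM gefitinib, or with 60 µM of each drug together. Luteolin is a plant flavonoid and gefitinib an inhibitor of the EGF receptor kinase. Both were given dissolved in DMSO, which the 24 h groups therefore shared. The 6 scanner files of the drug-treated arrays bear other treatments in their names than in their labels: the arrays labelled luteolin are named for gefitinib, those labelled gefitinib for the combination, and those labelled with both drugs for luteolin. Groups follow the labels here, each group is called by its label, and the reading by file name is given where it changes a result. Which of the readings is right was not settled here.

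Interferons are secreted proteins that warn cells of infection. They bind cell-surface receptors whose JAK kinases phosphorylate STAT transcription factors. The complex ISGF3, which holds STAT2 and IRF9, binds the interferon-stimulated response element (ISRE), and STAT dimers act at gamma-activated sites (GAS). The genes switched on in this way encode proteins that detect viral RNA, block viral entry, translation and release, or present antigen, and many tumor lines keep part of this program on without added interferon.

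RefSeq promoters (GRCh38.p14, 250 bases before to 50 after the annotated start) were matched to 30 of the 37 genes. Only the first entry was searched where a gene had more than 1, as for IFIT3, MX1, IFI16, TAP1, IFI27, IFI44, PARP9 and XAF1. A missing match therefore holds for that start alone. The ISRE was searched on both strands as GAAA, any 2 bases and GAAA (on the other strand TTTC, any 2 bases and TTTC), each overlapping match being counted. The GAS was searched as TTC, any 3 bases and GAA, which reads the same on both strands. An ISRE match was present in 19 of the 30 windows (63.3%), against 3.57% of all 35116 promoters, and a GAS match in 7 (23.3%), against 7.66%. Both motifs were found in 3 genes, IFITM1, BST2 and IFI27, where a GAS match shared bases with an ISRE match, and neither in 7. Of the 13 genes called lower on the arrays labelled luteolin (below), 10 had a promoter and 8 of these an ISRE match. All 5 promoters among the 6 genes called higher on the arrays labelled gefitinib had one, and 4 of 10 among the genes called in no comparison with DMSO. Windows are printed for genes that moved in different directions on these arrays, so that their elements can be read side by side. Capitals mark the ISRE matches before the start.
IFIT1 (chr10:89392477-89392559, + strand): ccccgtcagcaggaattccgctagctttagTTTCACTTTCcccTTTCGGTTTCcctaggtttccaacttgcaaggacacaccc
GBP1 (chr1:89065296-89065365, - strand): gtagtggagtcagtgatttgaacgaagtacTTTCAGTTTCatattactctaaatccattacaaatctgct
BST2 (chr19:17405715-17405790, - strand): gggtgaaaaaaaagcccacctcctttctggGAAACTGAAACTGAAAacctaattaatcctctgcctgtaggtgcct
IFI44 (chr1:78649741-78649788, + strand): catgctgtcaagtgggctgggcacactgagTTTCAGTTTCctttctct
IFITM1 (chr11:313970-314039, + strand): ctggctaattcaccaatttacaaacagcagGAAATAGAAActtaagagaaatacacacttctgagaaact
IFITM3 (chr11:320861-320942, - strand): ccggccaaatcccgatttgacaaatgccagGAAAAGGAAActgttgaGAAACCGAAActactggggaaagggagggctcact
IFI6 (chr1:27672246-27672378, - strand): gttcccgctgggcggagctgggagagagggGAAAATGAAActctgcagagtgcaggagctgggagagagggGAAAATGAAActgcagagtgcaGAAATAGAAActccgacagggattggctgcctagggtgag
IFI27 (chr14:94110598-94110680, + strand): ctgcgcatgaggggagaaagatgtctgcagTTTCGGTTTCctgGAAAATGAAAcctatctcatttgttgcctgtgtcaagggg
ISG20 (chr15:88638917-88638986, + strand): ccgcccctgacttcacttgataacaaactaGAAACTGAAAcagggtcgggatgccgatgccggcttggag

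**Figure D1:**
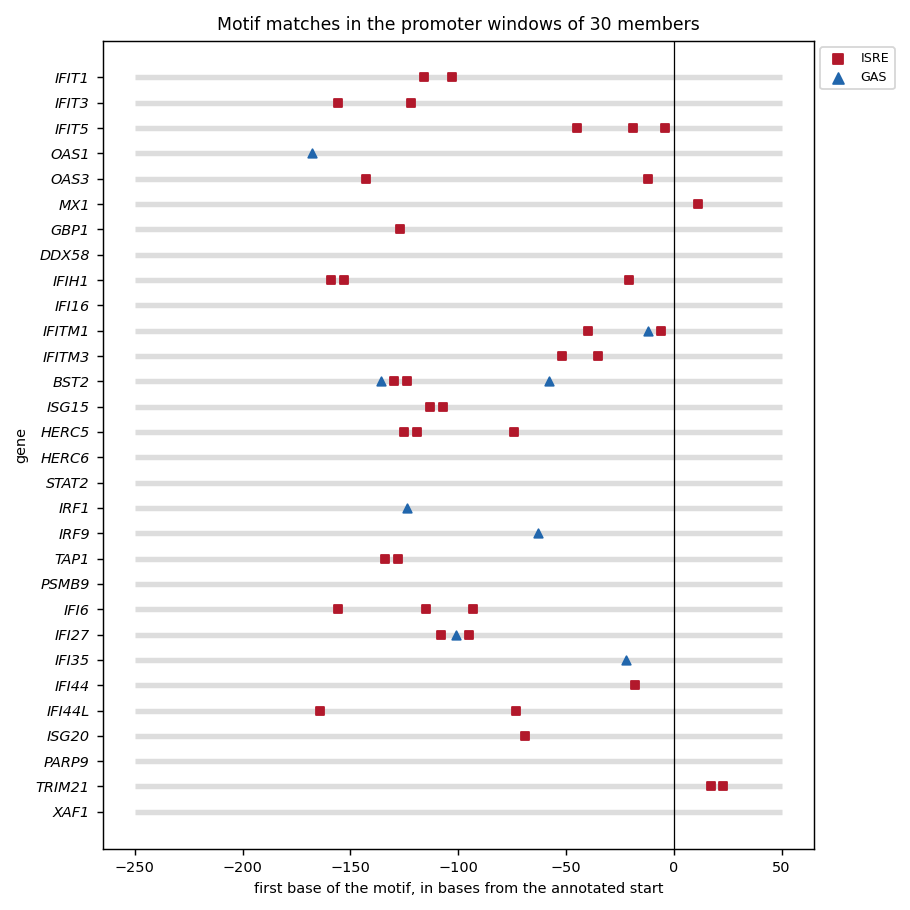
Position of ISRE matches (red squares) and GAS matches (blue triangles) in the promoter windows of the 30 matched genes; the x axis is the distance of the first base of the motif from the annotated start in bases. ISRE matches lie before the start in 17 of the 19 genes that hold one, and after it in MX1 and TRIM21. Only 1 entry was searched per gene, and MX1 had 3.

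Each level below is a log2 signal relative to the 75th percentile of its own array, so that 0 is that percentile. In processed signal this percentile was 1402 and 1177 at 0 h, 1350 and 1283 with DMSO, 1173 and 1041 under the luteolin label, 651 and 628 under the gefitinib label and 865 and 540 under the label of both drugs. The share of probes well above background ran from 63.4% to 70.4%. Of the 37 genes, 35 were well above background on all 10 arrays, and no spot of them was saturated. The epithelial markers KRT8, KRT18, KRT19, EPCAM and CDH1 were well above background on all 10 arrays. Of the leukocyte markers PTPRC and LYZ were on none and CD3E and CD14 on all 10, and of the fibroblast markers DCN and PDGFRB were on none, COL1A2 on 2, LUM on 8 and COL1A1 on 9. Since the RNA is from bulk culture, fewer cells of a type and less RNA per cell cannot be told apart.

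The interferon-stimulated genes also differed between replicates as a block. With DMSO, replicate 1 was lower than replicate 2 for 36 of the 37 genes, with a median difference of -0.40 log2 against 0.01 over all genes. On the arrays labelled with both drugs, replicate 1 was higher for 31 genes, with a median difference of 0.97 against -0.04 over all genes. The 6 genes that went the other way in that pair were IFITM1, IFITM2, IFITM3, BST2, IFI6 and IFI27. The median SD of the 37 genes was 0.07 at 0 h, 0.28 with DMSO, 0.20 with the luteolin label, 0.14 with the gefitinib label and 0.68 with the label of both drugs, against 0.12, 0.09, 0.14, 0.18 and 0.26 over all genes (n = 2 arrays each). What set these arrays apart was not tested.

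**Figure D2:**
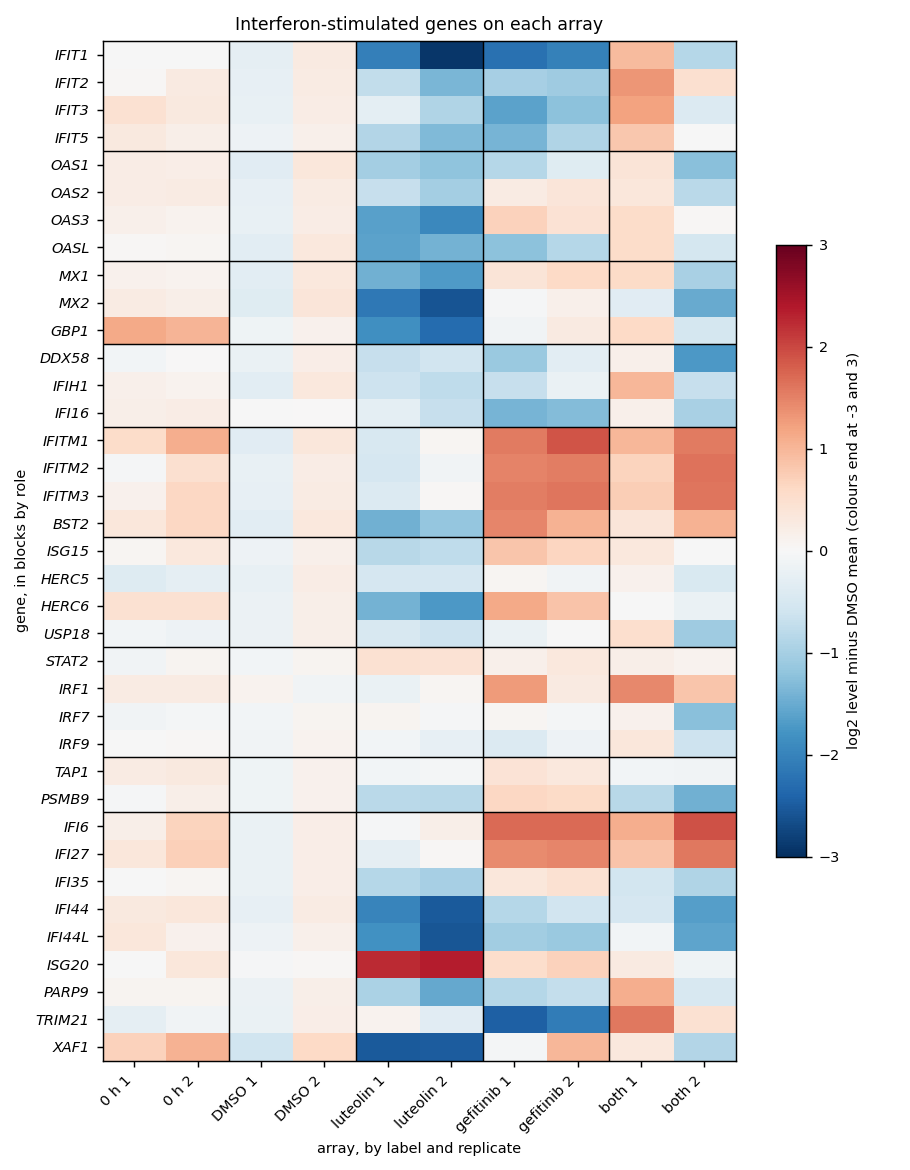
Log2 level of the 37 interferon-stimulated genes on each array minus the mean of the 2 DMSO arrays, by color, with genes in blocks by role (IFIT, OAS, MX and GBP1, sensors, IFITM and BST2, ISG15 system, transcription factors, antigen processing, others). The columns labelled luteolin are mostly blue, the IFITM block and IFI6 and IFI27 are red in the columns labelled gefitinib and both, and replicates 1 and 2 labelled with both drugs differ in most rows.

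The arrays labelled luteolin had lower levels of interferon-stimulated genes than DMSO. A gene was called when limma's adjusted p was under 0.05 and the change at least 2-fold. On these arrays 13 of 37 genes were called lower, against 6.21% of all 19709 genes tested, and 1, ISG20, was called higher, against 7.2%. The median change of the 37 genes was -0.80 log2, against 0.08 over all genes, and 33 of 37 had a negative sign. The arrays labelled gefitinib held a mixture, with 6 genes called higher (15.5% of all genes) and 7 called lower (14.4%), and a median of 0.09 against 0.21. On the arrays labelled with both drugs 7 genes were called higher (12%) and 2 lower (7.83%), with a median of 0.03 against 0.16. For these 2 labels the share of the 37 genes called was close to the share of all genes. In all, 24 genes were called in at least 1 of the 3 comparisons, which share the DMSO arrays, and 13 in none. IFIT1, IFIT2, IFIT5 and OASL were the 4 genes called lower under both single-drug labels, and BST2 was called in opposite directions.

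**Figure D3:**
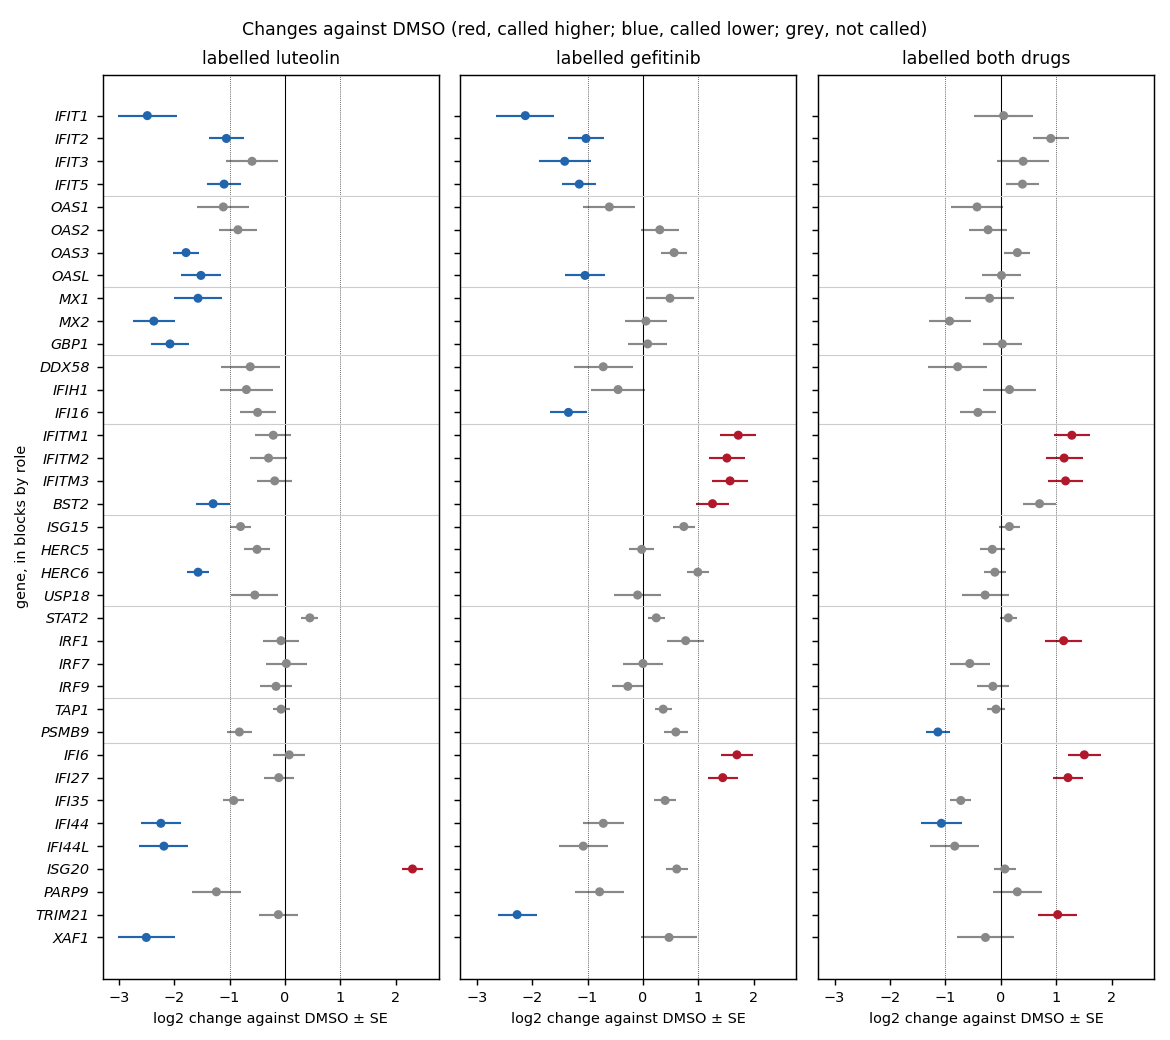
Log2 change of each gene against DMSO with its standard error, for the 2 arrays of each label; red points were called higher, blue points lower and grey points were not called, and dotted lines mark 2-fold. Blue points gather in the left panel (13 lower) and the IFITM genes, IFI6 and IFI27 are red in the other panels.

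The calls rest on few arrays. Leaving out DMSO replicate 2 or luteolin replicate 2 brought the 13 lower genes to 5 each time, and GBP1, MX2, IFI44, HERC6 and OAS3 were called lower whichever of the 10 arrays was left out. The 7 genes lower with the gefitinib label came to 1 without DMSO replicate 2, to 2 without gefitinib replicate 1 and to 4 without gefitinib replicate 2, and TRIM21 alone was called whichever array was left out. The 7 genes higher with the label of both drugs came to 0 without DMSO replicate 1 and to 3 without DMSO replicate 2, and the 2 lower genes to 8 without luteolin plus gefitinib replicate 1, to 0 without DMSO replicate 2 or luteolin plus gefitinib replicate 2, and to 1 without any other array. Within slides, the median change with the luteolin label was -0.48 on slide 1 and -1.09 on slide 2, with the gefitinib label 0.28 on slide 1, and with the label of both drugs 0.71 on slide 1 and -0.66 on slide 2, while every gene called against DMSO kept its sign on each slide that held both groups.

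The IFIT proteins bind viral RNA and hold back its translation. All 4 genes of the family, which lie side by side on chromosome 10, were called lower with the gefitinib label and 3 with the luteolin label, and none was called with both drugs. No IFIT call was kept whichever of the 10 arrays was left out. Those kept in the fewest such fits were IFIT2 with the luteolin label and IFIT3 with the gefitinib label. IFIT1, which recognises RNA caps that lack host methylation, read 3.76 and 3.75 at 0 h, 3.49 and 4.05 with DMSO, 1.71 and 0.85 under the luteolin label, 1.54 and 1.75 under the gefitinib label, and 4.72 and 2.92 under the label of both drugs. Both single-drug pairs lay below every 0 h and DMSO array, and the pair labelled with both drugs straddled DMSO. The change of IFIT1 was -2.49 ± 0.53 (SE, adjusted p = 0.0113) with the luteolin label, -2.12 ± 0.53 (SE, adjusted p = 0.0105) with the gefitinib label and 0.05 ± 0.53 (SE, adjusted p = 0.947) with both. IFIT2, a partner of IFIT1 that has been tied to apoptosis, read 2.13 and 2.37 at 0 h, 1.86 and 2.35 with DMSO, 1.37 and 0.73 under the luteolin label, 1.12 and 1.04 under the gefitinib label, and 3.42 and 2.59 under the label of both drugs. Its changes were -1.06 ± 0.32 (SE, adjusted p = 0.0434) and -1.03 ± 0.32 (SE, adjusted p = 0.0264) for the single-drug labels, and 0.90 (adjusted p = 0.0534) for both, where both arrays lay above DMSO. IFIT3, which stabilises IFIT1 on RNA, read 0.70 and 0.54 at 0 h, 0.02 and 0.45 with DMSO, -0.05 and -0.67 under the luteolin label, -1.36 and -1.0 under the gefitinib label, and 1.45 and -0.18 under the label of both drugs. Its change with the gefitinib label was -1.41 ± 0.47 (SE, adjusted p = 0.0335), and its change of -0.60 with the luteolin label was not called (adjusted p = 0.398). IFIT5, which binds RNA with phosphorylated ends, read 0.62 and 0.50 at 0 h, 0.17 and 0.48 with DMSO, -0.55 and -0.99 under the luteolin label, -1.07 and -0.57 under the gefitinib label, and 1.13 and 0.31 under the label of both drugs. Its changes under the single-drug labels were -1.10 ± 0.30 (SE, adjusted p = 0.0309) and -1.15 ± 0.30 (SE, adjusted p = 0.0135), with all 4 of those arrays below 0 h and DMSO. A further IFIT5 probe gave -0.78 with the luteolin label, which was not called (adjusted p = 0.0847), and -1.30 with the gefitinib label, which was (adjusted p = 0.00699). With quantile normalization, or with the replicate number as a block, the IFIT2 call under the luteolin label was lost. With the slide as a block the IFIT2 calls were lost under both single-drug labels (adjusted p = 0.0623 and 0.0641). A further IFIT2 probe gave -0.97 and -0.69, neither called (adjusted p = 0.0942 and 0.153), and 1.11 with both drugs (adjusted p = 0.0454).

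The OAS enzymes make short oligoadenylates that switch on RNase L, which then degrades RNA. OAS3 and OASL were called lower with the luteolin label and OASL with the gefitinib label. OAS3 read 3.17 and 3.13 at 0 h, 2.80 and 3.26 with DMSO, 1.39 and 1.10 under the luteolin label, 3.71 and 3.47 under the gefitinib label, and 3.59 and 3.07 under the label of both drugs. The pair labelled luteolin lay below all other arrays, and the change was -1.79 ± 0.24 (SE, adjusted p = 0.00176), a 3.45-fold drop. A further OAS3 probe gave -1.87. OASL, a relative without the enzyme's activity that aids RNA sensing, read 0.32 and 0.35 at 0 h, -0.03 and 0.61 with DMSO, -1.32 and -1.13 under the luteolin label, -0.95 and -0.56 under the gefitinib label, and 0.85 and -0.25 under the label of both drugs. It changed by -1.52 ± 0.36 (SE, adjusted p = 0.0168) and -1.05 ± 0.36 (SE, adjusted p = 0.0362), and the second of these calls was lost with the slide as a block (adjusted p = 0.0764). OAS2 was not called against DMSO, and was against 0 h, at -1.09 ± 0.35 (SE, adjusted p = 0.0452) with the luteolin label. Its levels were -0.24 and -0.23 (0 h), -0.72 and -0.22 (DMSO), -1.16 and -1.49 (luteolin label), -0.23 and -0.10 (gefitinib label) and -0.13 and -1.27 (label with both drugs). OAS1 had changes of -1.11, -0.61 and -0.43 against DMSO in label order, none of them called (adjusted p = 0.119, 0.299 and 0.483).

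The MX proteins and GBP1 are large GTPases that trap viral particles or attack pathogen compartments. All 3 genes were called lower with the luteolin label and none under the other labels. GBP1, a classical target of interferon gamma, read -1.12 and -1.24 at 0 h, -2.39 and -2.14 with DMSO, -4.09 and -4.58 under the luteolin label, -2.37 and -1.99 under the gefitinib label, and -1.68 and -2.80 under the label of both drugs. The luteolin-labelled pair lay below and the 0 h pair above all other arrays. Its change was -2.08 ± 0.35 (SE, adjusted p = 0.00441) against DMSO and -3.16 ± 0.35 (SE, adjusted p = 0.000696) against 0 h, a drop of 8.93-fold. A second GBP1 probe gave -2.46 against DMSO. MX2, which restricts lentiviruses, read 1.04 and 0.98 at 0 h, 0.45 and 1.16 with DMSO, -1.34 and -1.79 under the luteolin label, 0.76 and 0.95 under the gefitinib label, and 0.45 and -0.70 under the label of both drugs. Its change with the luteolin label was -2.37 ± 0.38 (SE, adjusted p = 0.0036), and its second probe gave -2.25. MX1, which traps viral nucleocapsids, read 4.45 and 4.43 at 0 h, 4.01 and 4.62 with DMSO, 2.88 and 2.61 under the luteolin label, 4.69 and 4.91 under the gefitinib label, and 4.88 and 3.34 under the label of both drugs. Its change was -1.57 ± 0.44 (SE, adjusted p = 0.0316), and the call was lost when any 1 of the 6 arrays at 0 h, with DMSO or with the luteolin label was left out, at changes of -1.88 to -1.26 (adjusted p = 0.0543 to 0.182). It was also lost with the slide as a block (adjusted p = 0.0529).

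**Figure D4:**
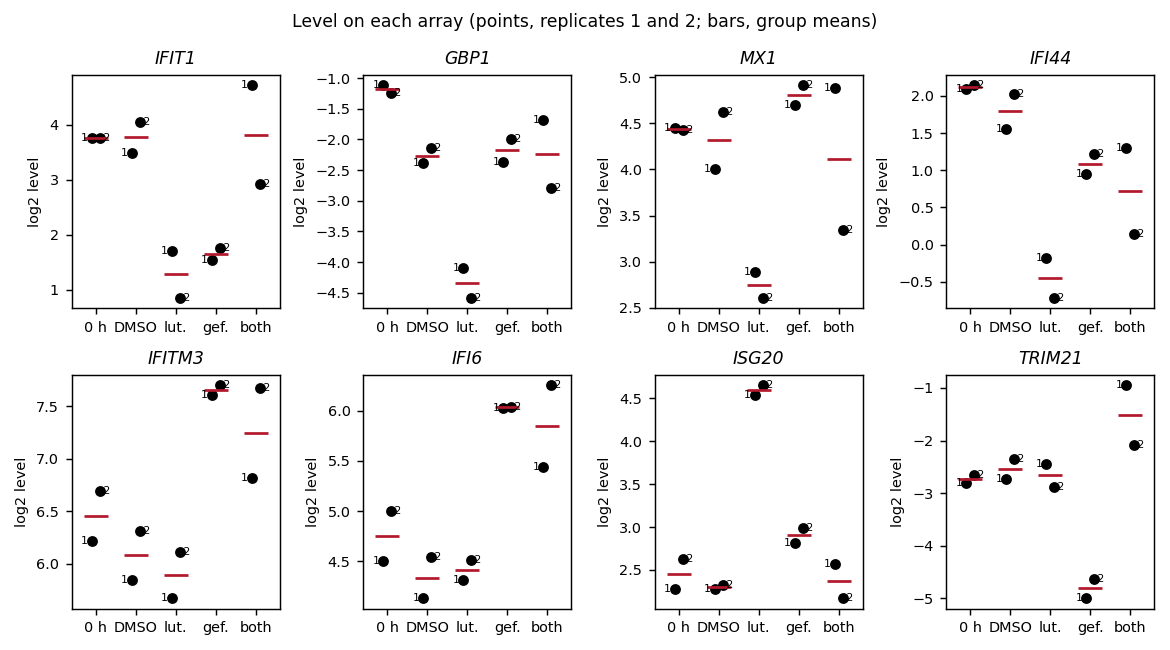
Log2 level of 8 interferon-stimulated genes on each array (points, numbered by replicate) with group means (red bars), for 0 h, DMSO and the arrays labelled luteolin (lut.), gefitinib (gef.) and both drugs. IFIT1 is low under both single-drug labels, GBP1, MX1 and IFI44 are lowest under the luteolin label, IFITM3 and IFI6 are high under the gefitinib label, ISG20 is high with luteolin alone and TRIM21 is low with gefitinib alone.

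Of the sensors of foreign nucleic acid, IFI16 was called and the RNA helicases were not. IFI16, which binds DNA, read 0.79 and 0.83 at 0 h, 0.61 and 0.62 with DMSO, 0.33 and -0.08 under the luteolin label, -0.77 and -0.68 under the gefitinib label, and 0.77 and -0.37 under the label of both drugs. Both arrays labelled gefitinib were below every other array, and the change was -1.34 ± 0.33 (SE, adjusted p = 0.00962). A second IFI16 probe gave -1.18. DDX58, which encodes RIG-I, had changes of -0.63, -0.72 and -0.78 in label order, and IFIH1, which encodes MDA5, had -0.70, -0.45 and 0.16, with adjusted p of 0.261 to 0.813.

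The IFITM proteins keep viruses from fusing with cell membranes, and BST2 (tetherin) holds budding virus at the surface. All 4 genes were called higher with the gefitinib label, and the 3 IFITM genes also with both drugs, whereas BST2 fell with the luteolin label. IFITM1 read 5.77 and 6.31 at 0 h, 4.87 and 5.57 with DMSO, 4.74 and 5.27 under the luteolin label, 6.77 and 7.10 under the gefitinib label, and 6.21 and 6.78 under the label of both drugs. All 4 arrays with a gefitinib or combination label were above DMSO, and the changes were 1.72 ± 0.33 (SE, adjusted p = 0.00381) and 1.28 ± 0.33 (SE, adjusted p = 0.0174). IFITM2 read 5.30 and 5.81 at 0 h, 5.12 and 5.54 with DMSO, 4.83 and 5.24 under the luteolin label, 6.82 and 6.87 under the gefitinib label, and 5.99 and 6.95 under the label of both drugs. IFITM3 read 6.22 and 6.69 at 0 h, 5.84 and 6.32 with DMSO, 5.67 and 6.11 under the luteolin label, 7.61 and 7.70 under the gefitinib label, and 6.82 and 7.67 under the label of both drugs. The 3 genes have closely related sequences and lie side by side on chromosome 11, and whether their probes share signal was not tested. IFITM2 rose by 1.51 ± 0.33 (SE, adjusted p = 0.00637) and 1.14 ± 0.33 (SE, adjusted p = 0.0268), and IFITM3 by 1.57 ± 0.32 (SE, adjusted p = 0.00474) and 1.17 ± 0.32 (SE, adjusted p = 0.0215). BST2 read 1.43 and 1.72 at 0 h, 0.78 and 1.41 with DMSO, -0.34 and -0.07 under the luteolin label, 2.57 and 2.13 under the gefitinib label, and 1.45 and 2.14 under the label of both drugs. Its change was -1.30 ± 0.30 (SE, adjusted p = 0.0163) with the luteolin label and 1.25 ± 0.30 (SE, adjusted p = 0.0093) with the gefitinib label.

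The rises of this group, and of IFI6 and IFI27 below, depended on the scaling between arrays. With quantile normalization the changes with the gefitinib label were 0.89 for IFITM1, 0.70 for IFITM2, 0.69 for IFITM3, 1.00 for BST2, 0.96 for IFI6 and 0.63 for IFI27, with adjusted p of 0.00905 to 0.0485, so that 0 of 6 reached 2-fold, and the 7 genes higher with both drugs became 2. With no scaling, where the median of all genes moved to -0.83 with the gefitinib label, they were 0.21 to 0.68, and IFI6 alone had an adjusted p under 0.05 (0.0398). IFITM3 had a signal of 77529 and 101924 with DMSO against 126784 and 130085 with the gefitinib label before scaling, on arrays whose 75th percentile was 1350 and 1283 against 651 and 628. Over all genes, 51.9% of the calls with the gefitinib label were higher, 65.8% with normexp background correction and 39.9% with quantile normalization, and for the label of both drugs 60.5%, 70.7% and 44.5%. The lower genes under the gefitinib label were 7, 6 and 6 in these settings. Epithelial markers and markers of other cell types also changed on these arrays. Among the epithelial markers, CDH1 changed by 1.33 and 1.35 with the gefitinib label and with both drugs, and by 1.29 with the luteolin label. With the gefitinib label and with both drugs KRT8 changed by 1.07 and 0.43 and EPCAM by 0.82 and 0.27. KRT18 changed by 0.09 and -0.80 and KRT19 by -0.19 and -0.96. CD14 changed by 1.81 and 1.64 with the gefitinib label and with both drugs (adjusted p = 0.0137 and 0.0276), LUM by 1.03 and 1.74 (adjusted p = 0.0306 and 0.00621) and COL1A1 by -2.22 and -1.54 (adjusted p = 0.000918 and 0.00608), while CD3E changed by 1.25 with the gefitinib label (adjusted p = 0.00335). LUM was well above background on 1 of the 2 DMSO arrays and COL1A1 on 1 of the 2 gefitinib-labelled arrays. PTPRC, LYZ, DCN and PDGFRB were not well above background on any array, and the part of these markers in the rises was not tested.

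ISG15 is a ubiquitin-like protein that HERC5 attaches to other proteins and USP18 removes. In this system HERC6, a relative of HERC5, was called, lower with the luteolin label. HERC6 read 1.24 and 1.23 at 0 h, 0.61 and 0.95 with DMSO, -0.63 and -0.95 under the luteolin label, 1.91 and 1.63 under the gefitinib label, and 0.76 and 0.57 under the label of both drugs. The luteolin-labelled pair lay below and the gefitinib-labelled pair above all other arrays, with changes against DMSO of -1.57 ± 0.20 (SE, adjusted p = 0.00145) and 0.99 ± 0.20 (SE, adjusted p = 0.00435), the latter just under 2-fold. A second HERC6 probe gave -1.68 and 0.94. ISG15 itself had changes of -0.80 ± 0.19 (SE, adjusted p = 0.0185) and 0.74 ± 0.19 (SE, adjusted p = 0.013), neither of which reached 2-fold. HERC5 and USP18 had changes between -0.55 and -0.02, none of them called.

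Among the transcription factors IRF1, an early interferon target, was called higher with both drugs, and STAT2, IRF7 and IRF9 were not called against DMSO. IRF1 read -1.50 and -1.48 (0 h), -1.62 and -1.84 (DMSO), -1.93 and -1.68 (luteolin label), -0.46 and -1.46 (gefitinib label) and -0.29 and -0.90 (label with both drugs). Its change with both drugs was 1.13 ± 0.33 (SE, adjusted p = 0.0265), and gefitinib replicate 1 lay with that pair while gefitinib replicate 2 lay near 0 h. STAT2 and IRF9, both part of ISGF3, had changes of 0.45, 0.24 and 0.13, and of -0.16, -0.27 and -0.14. A second IRF9 probe disagreed, at 1.54 with both drugs (adjusted p = 0.00404). Of the antigen-processing genes, PSMB9, an immunoproteasome subunit, was called lower with both drugs, and TAP1, a subunit of the peptide transporter, was not called. PSMB9 read 1.31 and 1.52 (0 h), 1.23 and 1.48 (DMSO), 0.54 and 0.52 (luteolin label), 1.97 and 1.93 (gefitinib label) and 0.53 and -0.10 (label with both drugs). Its change was -1.14 ± 0.22 (SE, adjusted p = 0.00641), while with the gefitinib label it was 0.59 (adjusted p = 0.0498).

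Among the remaining genes, IFI6 and IFI27 were called higher with the gefitinib label and with both drugs, and IFI44, IFI44L and XAF1 were called lower with the luteolin label. IFI6, a small membrane protein that protects cells from apoptosis, read 4.51 and 5.00 at 0 h, 4.13 and 4.54 with DMSO, 4.31 and 4.52 under the luteolin label, 6.03 and 6.03 under the gefitinib label, and 5.44 and 6.25 under the label of both drugs. It rose by 1.70 ± 0.29 (SE, adjusted p = 0.00259) and 1.51 ± 0.29 (SE, adjusted p = 0.00638). IFI27, a small mitochondrial protein, read 5.45 and 5.83 at 0 h, 4.91 and 5.32 with DMSO, 4.85 and 5.15 under the luteolin label, 6.53 and 6.57 under the gefitinib label, and 5.96 and 6.69 under the label of both drugs. It rose by 1.44 ± 0.27 (SE, adjusted p = 0.00358) and 1.21 ± 0.27 (SE, adjusted p = 0.0106), and a second probe gave 1.47 and 1.22. A second IFI6 probe gave 1.16 (adjusted p = 0.00467) and 0.57 (adjusted p = 0.0823). IFI44, induced by interferon and hepatitis viruses, read 2.09 and 2.14 at 0 h, 1.56 and 2.03 with DMSO, -0.18 and -0.72 under the luteolin label, 0.94 and 1.21 under the gefitinib label, and 1.30 and 0.14 under the label of both drugs. Its change was -2.24 ± 0.37 (SE, adjusted p = 0.00396) with the luteolin label and -1.07 ± 0.37 (SE, adjusted p = 0.0461) with both drugs, and the second of these calls was lost without any 1 of 9 arrays and kept without luteolin plus gefitinib replicate 1. IFI44L, its neighbor on chromosome 1, read 2.38 and 2.19 at 0 h, 1.90 and 2.21 with DMSO, 0.24 and -0.51 under the luteolin label, 1.01 and 0.94 under the gefitinib label, and 1.97 and 0.47 under the label of both drugs. It was called with the luteolin label, at -2.19 ± 0.44 (SE, adjusted p = 0.00931), and its change of -1.08 with the gefitinib label was not called (adjusted p = 0.0681).

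XAF1, a pro-apoptotic partner of XIAP, read -2.57 and -2.22 at 0 h, -3.86 and -2.67 with DMSO, -5.77 and -5.76 under the luteolin label, -3.33 and -2.26 under the gefitinib label, and -2.95 and -4.14 under the label of both drugs. On both luteolin-labelled arrays it was not well above background. The fall of the group mean against DMSO was therefore taken as at least 4.75-fold (measured change -2.50 ± 0.51 (SE, adjusted p = 0.00994)), and against 0 h as at least 8.67-fold. These limits allow for the low signal and not for the spread of the DMSO arrays (SD 0.84). Within slides the measured change was -1.91 on slide 1 and -3.10 on slide 2. Further XAF1 probes gave -2.52 and -2.56. ISG20 and TRIM21 had patterns of their own. ISG20, an exonuclease that degrades viral RNA, read 2.28 and 2.63 at 0 h, 2.27 and 2.32 with DMSO, 4.54 and 4.65 under the luteolin label, 2.82 and 2.99 under the gefitinib label, and 2.57 and 2.17 under the label of both drugs. It was 4.92-fold higher with the luteolin label, 2.30 ± 0.20 (SE, adjusted p = 0.000496), and both of those arrays lay far above all others. TRIM21, a cytosolic antibody receptor and ubiquitin ligase, read -2.80 and -2.66 at 0 h, -2.73 and -2.35 with DMSO, -2.44 and -2.88 under the luteolin label, -5.00 and -4.63 under the gefitinib label, and -0.95 and -2.08 under the label of both drugs. It was lowest with the gefitinib label, -2.27 ± 0.35 (SE, adjusted p = 0.00176), where gefitinib replicate 1 was not well above background, and with normexp background correction this change was -0.88 (adjusted p = 0.00909), under 2-fold. It was highest with both drugs, 1.02 ± 0.35 (SE, adjusted p = 0.0475), a call that was likewise kept in 1 of 10 such fits. IFI35 and PARP9 were not called, with changes of -0.93, 0.40 and -0.72, and of -1.24, -0.78 and 0.30.

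After 24 h with DMSO, 0 of the 37 genes were called against 0 h by limma, where 0.0203% of all genes were called higher and 0.0101% lower, and 3 had an unadjusted p under 0.05. The methods' t-test, which has little power with 2 arrays per group, also called 0. GBP1 had the largest value, -1.08 ± 0.35 (SE, adjusted p = 0.637), with the 2 DMSO arrays below both 0 h arrays. Taken against 0 h, the luteolin label gave 1 gene higher (8.26% of all genes) and 15 lower (7.87%), adding OAS2 and IFITM1 to the 13. The gefitinib label gave 3 higher, IFITM2, IFITM3 and IFI6 (14.5%), and 9 lower (14.6%). The label of both drugs gave 2 higher, IFI6 and TRIM21 (11.5%), and 4 lower, MX2, GBP1, PSMB9 and IFI44 (8.43%). Without luteolin plus gefitinib replicate 1 these 6 calls became 16, without replicate 2 of that label 3, and without 0 h replicates 1 and 2 in turn 1 and 2. The 16 luteolin calls became 10 and 9 without 0 h replicates 1 and 2 and 10 without luteolin replicate 2, and the 12 gefitinib calls became 5 and 7 without those 0 h arrays and 6 without gefitinib replicate 1.

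Set directly against the other drug-treated groups, the arrays labelled luteolin differed for many of the genes. Between the luteolin and gefitinib labels 19 genes were called (36.7% of all genes), 17 lower with the luteolin label. HERC6 had the lowest adjusted p, at -2.56 ± 0.20 (SE, adjusted p = 6.79e-05), followed by OAS3 at -2.35 ± 0.24 (SE, adjusted p = 0.000164). ISG15 was among them at -1.54 ± 0.19 (SE, adjusted p = 0.000389). Between the label of both drugs and luteolin 22 genes were called (21%), 21 of them higher with both. These 22 became 14 and 12 without luteolin replicates 1 and 2. Between both drugs and gefitinib 9 were called (27.1%), 6 higher with both, a share no higher than that over all genes. IFIT1, IFIT2 and IFIT5 were called higher with both drugs than under either single label, at 2.54 and 2.17 for IFIT1 and 1.96 and 1.93 for IFIT2. TRIM21 had a measured difference of 3.30 ± 0.35 (SE, adjusted p = 0.000242) against gefitinib, where 1 of the 2 arrays was not well above background. Read by file name, the same arrays and contrasts keep their values under other names, so that the 13 lower genes would belong to gefitinib, the mixed pattern to the combination, and the rises of IFITM1, IFITM2, IFITM3, IFI6, IFI27, IRF1 and TRIM21 to luteolin.

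The interaction asks whether the change with both drugs differs from the sum of the single-drug changes. By label, 13 of 37 genes had an adjusted p under 0.05, against 34.3% of all genes tested, so that the share of the 37 was near that of all genes. Of the 13, 12 were positive, with a median of 0.57 over the 37 genes against -0.16 over all genes. All 4 IFIT genes were among them, led by IFIT1 at 4.66 ± 0.75 (SE, adjusted p = 0.00258). TRIM21 followed at 3.42 ± 0.50 (SE, adjusted p = 0.00177), and ISG20 was the negative one at -2.84 ± 0.28 (SE, adjusted p = 0.000423). Leaving out single arrays gave 7 (without DMSO replicate 2 or luteolin replicate 2) to 21 (without luteolin plus gefitinib replicate 2). By file name, 15 genes passed, against 44.4% of all genes, a share no higher than that over all genes, 6 of them shared with the reading by label, and TRIM21 then turned to -3.17.

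**Figure D5:**
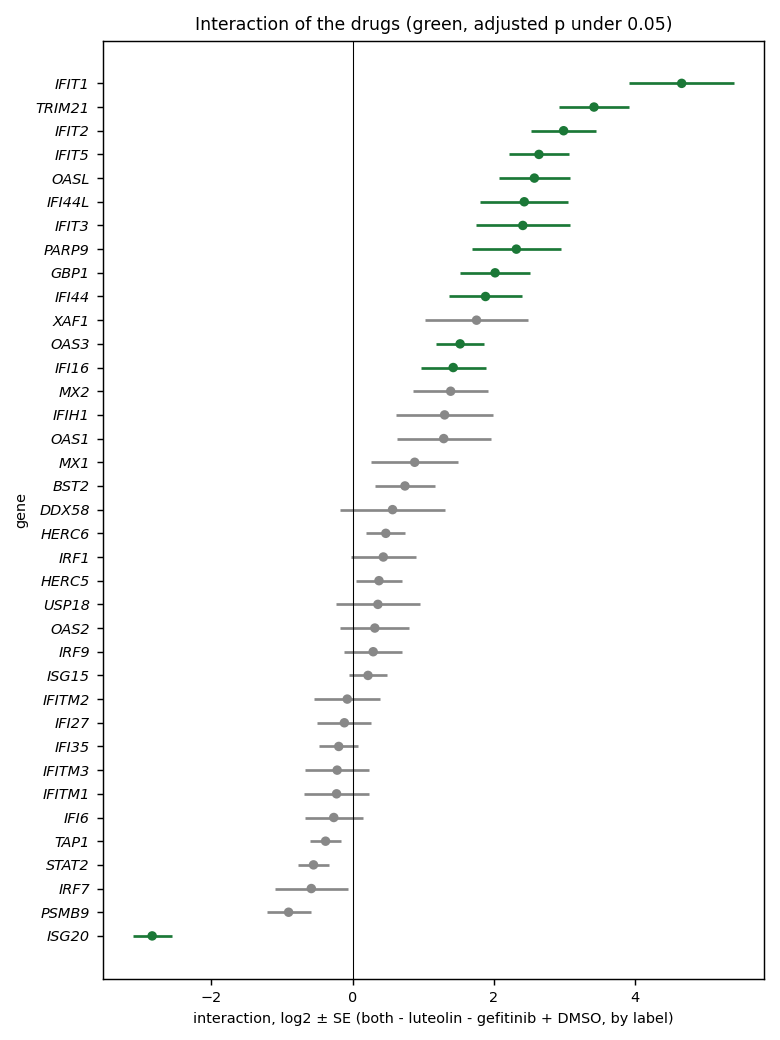
Interaction of the drugs for each of the 37 genes on the log2 scale with its standard error (both minus luteolin minus gefitinib plus DMSO, by label); green points had an adjusted p under 0.05. The values run from -2.84 (ISG20) to 4.66 (IFIT1), with 12 green points above 0 and 1 below.

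Of 38 other genes of the pathway, 30 were tested. With the luteolin label 1 was called higher and 2 lower, with the gefitinib label 3 and 10, and with both drugs 3 and 1, against 7.2% and 6.21%, 15.5% and 14.4%, and 12% and 7.83% of all genes. IFNB1, which encodes interferon beta, was well above background only on the 2 arrays labelled with both drugs, at -3.67 and -3.24, and was there at least 5.07-fold higher than with DMSO (adjusted p = 0.000488). IFNL1, a type III interferon, was at -4.30 and -4.35 on the same arrays and at least 2.78-fold higher than with DMSO (adjusted p = 0.0231), where it was not well above background. Among the 24 h groups, both genes met the filter on dim probes only under the label of both drugs. The filter thus picked them through the arrays where they are high, and their adjusted p gives no separate support for a rise. IFNB1 was not well above background on any other array, so that no fold is given for the single-drug labels. It was still the 1 gene called higher with the luteolin label and 1 of the 3 with the gefitinib label. Those calls compare signals that were not well above background in either group, so no rise was read from them. DHX58, also on this list, had a change of 1.60 with the gefitinib label under the same limit. With the gefitinib label CISH, a feedback inhibitor of STAT signaling, went from -2.42 with DMSO to -5.15 (adjusted p = 0.000158), with 1 of the 2 gefitinib-labelled arrays not well above background. IFNAR2, a receptor chain for type I interferon, went from -5.04 to -7.02 (adjusted p = 0.00111), where it was not well above background, so that the drop was at least 1.01-fold. IKBKE, a kinase upstream of interferon genes, was at -4.65 with DMSO and -6.61 with both drugs, not well above background there, a drop of at least 1.71-fold (adjusted p = 0.00668). Read by file name, the IFNB1 and IFNL1 rises and the IKBKE drop would belong to luteolin. The CISH and IFNAR2 drops would then belong to the combination.

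A second list of 47 interferon-stimulated genes, 42 of them tested, had 13 called lower and 1 higher with the luteolin label, 5 and 4 with the gefitinib label, and 2 and 3 with both drugs, with medians of -0.48, 0.34 and 0.08. Of all genes 6.21% were called lower and 7.2% higher with the luteolin label, 14.4% and 15.5% with the gefitinib label and 7.83% and 12% with both drugs, with medians of 0.08, 0.21 and 0.16. TRIM14, an adaptor of RNA sensing, went from 0.42 with DMSO to -2.14 with the luteolin label (adjusted p = 0.000849). TRIM22, a restriction factor, went from -2.73 to -4.72 on the same arrays (adjusted p = 0.00258), SAMD9L from 0.42 to -1.55 (adjusted p = 0.0228) and RTP4 from -2.59 to -4.71 (adjusted p = 0.0291). RTP4 was also lower with the gefitinib label, at -4.55 (adjusted p = 0.0205), with 1 of the 2 arrays not well above background. UBA7, the activating enzyme for ISG15, rose with both drugs from -4.37 to -2.03 (adjusted p = 0.000718). Class I antigen presentation is a process that interferon gamma raises, though not each gene listed here need be its target. Of 18 genes of this process none was called lower, and 1, 8 and 5 were called higher in label order, against 7.2%, 15.5% and 12% of all genes. B2M, CANX, HLA-F and HLA-B rose by 1.31 to 1.38 log2 with the gefitinib label, the arrays with the lower 75th percentile. Read by file name, the TRIM14, TRIM22 and SAMD9L drops would belong to gefitinib, and the RTP4 drops to gefitinib and the combination. The UBA7 rise would belong to luteolin, and those of B2M, CANX, HLA-F and HLA-B to the combination.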

How the data were processed

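Total RNA of PC-3 cells was hybridized to single-color Agilent 4x44K human arrays, 10 in all, with 2 arrays in each of 5 groups on 3 slides. The authors deposited the scanner output of Agilent Feature Extraction (10.7.3.1 in the file headers, 10.5.1 in the methods), whose processed intensity is background-corrected and not normalized between arrays; a deposited table of intensity values held the same numbers on all 45015 spots. Here control spots and outlier flags were left out, log2 of the deposited processed signal was taken minus its 75th percentile on each array, and spots were averaged per probe. Probes were kept where some group had its 2 arrays well above background (28776 of 41000), a filter that all 37 genes passed. limma 3.58.1 in R 4.3.3 was fitted over all 5 groups (5 residual degrees of freedom), with Benjamini-Hochberg adjustment over all kept probes and calls at an adjusted p under 0.05 and 2-fold change. The interaction used the adjusted p alone. Each gene was read from its probe with the highest mean signal, 14 of 37 having more than 1. The script was tested on simulated data.

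The genes and lists were chosen with earlier results of these data known. Values on every array are given for at most 25 genes, those called against DMSO or 0 h with the largest changes. The labels call the arrays biological replicates without naming separate cultures, so p-values measure the spread between these arrays, and 2 arrays per group limit the precision. Alternatives were background correction, normalization, filters, slide and replicate blocks, the methods' one-sample t-test, single arrays left out and the treatments in the file names. Leaving out pairs of DMSO and combination arrays and no scaling were added after seeing the data. Some genes of the comparison and marker lists are not reported here by name. Gene names are those of the array design, and promoters are from RefSeq (GRCh38.p14).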

Additional observations from a re-analysis of the deposited data

Results flagged for a closer look

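The change with both drugs differed from the sum of the single-drug changes in 13 of the 37 genes by limma's interaction term, against 34.3% of all genes tested. The share of the 37 genes was near that of all genes, so the count is not particular to them. On the log2 scale the interaction was 4.66 for IFIT1, 2.99 for IFIT2, 2.41 for IFIT3 and 2.64 for IFIT5. It was 1.52 for OAS3 and 2.57 for OASL. GBP1 had 2.02, IFI16 had 1.42, IFI44 had 1.88, IFI44L had 2.43 and PARP9 had 2.32. TRIM21 had 3.42 and ISG20 had -2.84. With the treatments of the file names OAS3 (2.05), GBP1 (2.13), IFI44 (2.60), IFI44L (1.94) and ISG20 (-1.76) kept an adjusted p under 0.05 and their sign, while TRIM21 had -3.17. The other 7 had an adjusted p above 0.05 under the file names.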

How the results depend on the processing

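Counts are of the 37 genes. Over the fits with 1 array left out, genes higher and lower against DMSO numbered 1 to 1 and 5 to 15 (luteolin label), 5 to 8 and 1 to 8 (gefitinib label) and 0 to 6 and 0 to 8 (both drugs). Against 0 h they numbered 9 to 18, 5 to 12 and 1 to 16. They were 17 to 20 for luteolin against gefitinib, 12 to 24 for both against luteolin, 6 to 11 for both against gefitinib and 7 to 21 for the interaction. Without DMSO replicate 1 and luteolin plus gefitinib replicate 2, both drugs gave 0 higher, 0 lower and 1 against 0 h, and the interaction 20. Without DMSO replicate 2 and luteolin plus gefitinib replicate 1 the gefitinib label gave 4 lower, both drugs 6 lower and 16 against 0 h, and the interaction 8.

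With no filter on dim probes both drugs gave 4 higher, 1 lower and 3 against 0 h, and with only the compared groups fitted 4, 1 and 2. Quantile normalization gave 0 higher with the gefitinib label and 2 with both drugs, and no minimum fold 10 higher with the gefitinib label. No scaling gave 0 higher and 13 lower with the gefitinib label, 0 and 10 with both drugs, 11 for both against 0 h, 10 for luteolin against gefitinib, 4 for both against luteolin and 7 for the interaction. With the slide as a block both drugs gave 1 lower and 3 against 0 h, and the calls of IFIT2 (both single-drug labels), MX1 (luteolin), OASL (gefitinib), and IFI44 and TRIM21 (both drugs) were lost. The methods' t-test, unadjusted, gave 2 lower with the luteolin label, 4 lower with the gefitinib label, 0 higher and 0 lower with both drugs, 7, 7 and 0 against 0 h, and 10, 1 and 0 between the drugs, and after Benjamini-Hochberg adjustment 0 throughout. With 2 arrays per group this test has 1 degree of freedom and little power after adjustment, so no conclusion was drawn from the 0 counts. The causes were not tested.

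With the replicate number as a block (replicate block) the genes lower with both drugs were 1, and 33 of 36 named calls against DMSO kept their side of the threshold. The other 3 were IFIT2 with the luteolin label (adjusted p = 0.051) and IFI44 and TRIM21 with both drugs (adjusted p = 0.0538 and 0.0579). Replicate differences of the groups correlated at -0.10 to 0.29 over all genes, so the numbers were not taken to pair the arrays.

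With the treatments of the file names luteolin gave 7 higher and 2 lower, gefitinib 1 and 13, both drugs 7 lower, luteolin 6 and both drugs 12 against 0 h, and both drugs 9 against luteolin and 19 against gefitinib. Changes that turned direction were, for luteolin, GBP1 0.027, IFIT1 0.0495, OAS3 0.30, BST2 0.70, OASL 0.011, IFIT5 0.39 and IFIT2 0.90, for gefitinib BST2 -1.30, IFITM1 -0.21, IFITM3 -0.19, IFITM2 -0.30 and IFI27 -0.11, and for both drugs TRIM21 -2.27 and PSMB9 0.59.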
